A study of Rattus norvegicus with 6 samples.

Results

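Cytochrome c oxidase, complex IV of the respiratory chain, has several nuclear subunits that exist in more than 1 tissue form, and 8 genes of these subunits are described here in rat gastrocnemius: Cox4i1 and Cox4i2, Cox6a1 and Cox6a2, Cox7a1 and Cox7a2, and Cox8a and Cox8b. They were chosen by gene symbol alone, and 7 of the 8 symbols matched a row of the expression table, which lists 26406 genes. The symbol Cox7a1 matched no row, so Cox7a1 was not analysed here. All 7 genes passed the filter at a mean of 1 FPKM over the rats, Cox7a2 through 2 rats alone. FPKM is the number of sequenced fragments of a gene, scaled to the length of its exons and to the mapped fragments of the library.

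Male Sprague Dawley rats (Crl:SD) carrying venous and arterial catheters received intravenous olanzapine for 24 h (rats 4, 10 and 12, n = 3) or a matching infusion of vehicle (rats 3, 9 and 11, n = 3). Olanzapine, an atypical antipsychotic, began with a loading dose of 1 mg for each 100 g of body weight in 0.5 h, followed during 23.5 h by an hourly 0.04 mg for each 100 g. The rats weighed 366 to 400 g in the olanzapine group and 356 to 382 g in the vehicle group. Each library was made from gastrocnemius tissue of 1 rat, a mixture of fiber types and vascular cells, and only this 1 time was sampled. The portion of the muscle that was used for RNA is not stated.

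Complex IV takes electrons from cytochrome c and passes them to oxygen. Its catalytic core is encoded by mitochondrial DNA, and the nuclear subunits surround the core and adjust its assembly and activity. In mammals, heart and skeletal muscle use the forms Cox6a2, Cox7a1 and, in rodents, Cox8b, while Cox6a1, Cox7a2 and Cox8a, often called liver forms, occur in most other tissues. Cox4i1 serves most tissues, muscle included, and Cox4i2 is known from lung and from the response to low oxygen.

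The stretch before the gene start is shown for the muscle forms Cox6a2, Cox8b and Cox7a1 and for Cox8a and Cox4i1, because Cox8b stood far above its counterpart Cox8a in every library and Cox4i1 is the abundant form with a wide tissue range. RefSeq's table for the build GRCr8 held a promoter for 6 of the 8 genes, and the 250 bases before the start are given on the strand of the gene. Capitals mark matches, on either strand, to the consensus of MEF2 (a muscle transcription factor), to the muscle E box CAGCTG, to TATAAA, to CCGGAA (a core of ETS factor sites) or to GGGCGG (a GC box). These motifs and the 5 stretches were chosen with the sequences in view, and none of the matches overlap.
Cox6a2 (chr1:192219717-192219966, minus strand): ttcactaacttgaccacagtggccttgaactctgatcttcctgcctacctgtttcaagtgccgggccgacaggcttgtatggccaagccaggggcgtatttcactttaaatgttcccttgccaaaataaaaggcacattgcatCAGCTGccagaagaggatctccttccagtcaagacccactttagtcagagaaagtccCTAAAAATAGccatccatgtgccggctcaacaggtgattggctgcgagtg
Cox8b (chr1:205408274-205408523, minus strand): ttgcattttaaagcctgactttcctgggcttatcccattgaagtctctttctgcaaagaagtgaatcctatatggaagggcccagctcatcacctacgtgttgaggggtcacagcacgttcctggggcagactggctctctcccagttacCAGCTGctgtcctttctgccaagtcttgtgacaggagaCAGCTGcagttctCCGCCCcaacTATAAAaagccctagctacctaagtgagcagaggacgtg
Cox7a1 (chr1:94568966-94569215, plus strand): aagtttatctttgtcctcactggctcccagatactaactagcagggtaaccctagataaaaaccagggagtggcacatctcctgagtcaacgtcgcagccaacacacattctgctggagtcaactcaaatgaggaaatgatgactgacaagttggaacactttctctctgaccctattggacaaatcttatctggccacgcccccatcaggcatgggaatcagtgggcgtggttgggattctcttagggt
Cox8a (chr1:213833624-213833873, minus strand): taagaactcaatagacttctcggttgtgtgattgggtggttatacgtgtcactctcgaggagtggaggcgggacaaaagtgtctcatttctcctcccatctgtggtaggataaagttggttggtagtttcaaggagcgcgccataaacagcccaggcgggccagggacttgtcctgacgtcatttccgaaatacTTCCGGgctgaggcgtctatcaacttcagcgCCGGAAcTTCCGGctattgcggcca
Cox4i1 (chr19:65630133-65630382, plus strand): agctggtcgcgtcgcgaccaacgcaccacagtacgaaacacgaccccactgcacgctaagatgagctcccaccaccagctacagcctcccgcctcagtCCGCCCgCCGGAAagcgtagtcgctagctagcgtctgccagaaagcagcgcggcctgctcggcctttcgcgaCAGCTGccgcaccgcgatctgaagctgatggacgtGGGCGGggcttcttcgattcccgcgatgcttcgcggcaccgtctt

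Cox6a2 held a MEF2 match 50 to 41 bases before the start and 1 CAGCTG. Cox8b held 2 CAGCTG, 1 TATAAA 39 to 34 bases before the start and 1 GGGCGG on the other strand. Cox7a1, the muscle form with no row in the expression table, held none of the 5 motifs. Cox8a held CCGGAA 3 times and no CAGCTG. Cox7a2, whose stretch is not printed, held 1 CCGGAA and 1 GGGCGG. Cox4i1 held 1 CAGCTG, 1 CCGGAA and 2 GGGCGG. Of the 33469 stretches of the same length in the table, 2.96% held a MEF2 match, 12.0% CAGCTG, 12.9% TATAAA, 12.6% CCGGAA and 30.5% GGGCGG. The stretches of Cox6a2 and Cox8b were 49.6% and 51.2% G or C, that of Cox7a1 48.4%, that of Cox8a 52.4% and that of Cox4i1 64.8%, where the mean of all stretches was 52.2%. A match describes the letters only, and binding was not measured.

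The FPKM of a rat summed to between 949847 and 1183010 in the olanzapine rats and between 945068 and 1058140 in the vehicle rats. Relative depth, estimated from the ratios of low values, was 0.441 in vehicle rat 11 and up to 0.920 in olanzapine rat 4, with vehicle rat 3 as 1. By this estimate vehicle rat 11 would give the least precise values, but precision was not measured. The 0.441 rests on 25 of 845 genes that were low in both rats. All 12 defining transcripts of skeletal muscle were above 0 in all 6 rats, and they summed to 146540 to 196998 FPKM in the olanzapine rats and to 116252 to 145012 FPKM in the vehicle rats. Over the 10285 genes tested with limma on log2(FPKM + 1), the median log2 fold change of olanzapine over vehicle was -0.11, and it was 0.03 after division by median-ratio size factors, so that scaling alone moved a log2 fold change by more than many values given here.

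Among the isoforms themselves, the muscle forms Cox6a2 and Cox8b made up nearly all of the FPKM of their pairs. Cox6a2, a small membrane subunit that takes part in the control of the enzyme by adenine nucleotides, lies on chromosome 1 of Rn5 from 206669984 to 206670730. It stood at 3907, 4700 and 5534 FPKM in olanzapine rats 4, 10 and 12 and at 5470, 4417 and 3702 FPKM in vehicle rats 3, 9 and 11. The groups overlapped over nearly their whole range, with the lowest value in vehicle rat 11 and the highest in olanzapine rat 12. The mean was 4714 ± 814 FPKM in the olanzapine rats and 4529 ± 890 FPKM in the vehicle rats (SD, n = 3 each). On the log2 scale olanzapine over vehicle was 0.06 (standard error 0.24, 95% interval -0.50 to 0.62, adjusted p = 0.922 from limma with Benjamini-Hochberg adjustment).

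Cox8b, the muscle form of the smallest nuclear subunit, lies on chromosome 1 from 220574321 to 220575819. It was at 3800, 3171 and 6224 FPKM in olanzapine rats 4, 10 and 12 and at 5158, 3547 and 3342 FPKM in vehicle rats 3, 9 and 11. Olanzapine rats held both the lowest and the highest value. Its mean was 4398 ± 1612 FPKM in the olanzapine rats and 4016 ± 995 FPKM in the vehicle rats (SD, n = 3 each), with a log2 fold change of 0.10, a standard error of 0.31 and a 95% interval of -0.60 to 0.80 (adjusted p = 0.901 from limma).

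Cox4i1, the form of subunit 4 that most tissues use and a subunit needed for assembly of the enzyme, lies on chromosome 19 from 64965335 to 64971575. It was at 1494, 1518 and 2170 FPKM in olanzapine rats 4, 10 and 12 and at 1929, 1580 and 1447 FPKM in vehicle rats 3, 9 and 11. Here too olanzapine rat 12 and vehicle rat 3 were high and the other 4 rats close together. Its log2 fold change was 0.05 (standard error 0.23, 95% interval -0.47 to 0.57, adjusted p = 0.930 from limma).

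**Figure D1:**
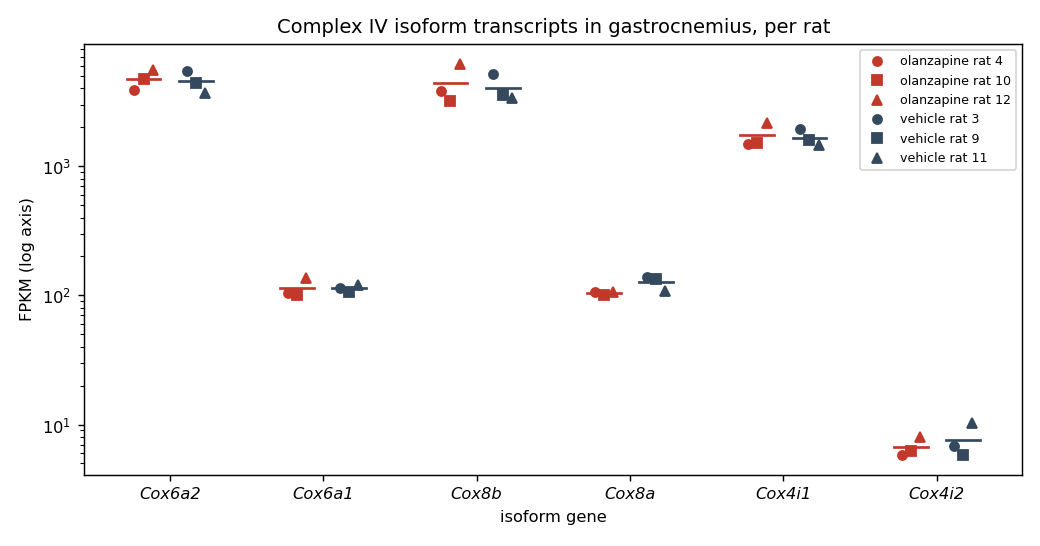
FPKM on a log axis of 6 isoform genes in each of the 6 rats, olanzapine in red left of vehicle in dark blue, with a symbol per rat and a line at the group mean (Cox7a2, listed at 0 in 4 rats, is left out). Cox6a2 and Cox8b sit at 3171 to 6224 FPKM, Cox6a1 and Cox8a at 100.2 to 138 FPKM and Cox4i2 at 5.79 to 10.3 FPKM, and of the 6 genes Cox8a alone has groups that do not overlap in FPKM, which do overlap after division by size factors.

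The liver forms were measured at a small part of these levels. Cox6a1, the counterpart of Cox6a2 on chromosome 12 from 48817758 to 48820811, was at 105, 101 and 136 FPKM in olanzapine rats 4, 10 and 12 and at 114, 107 and 121 FPKM in vehicle rats 3, 9 and 11. Its group means were 114 ± 19.4 FPKM in the olanzapine rats and 114 ± 7.36 FPKM in the vehicle rats (SD, n = 3 each). The log2 fold change was -0.01 (standard error 0.18, 95% interval -0.42 to 0.40, adjusted p = 0.981 from limma), and it was 0.16 with median-ratio size factors.

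Cox8a, the counterpart of Cox8b on chromosome 1 from 229457140 to 229459465, was the 1 isoform whose groups did not overlap. It was at 106.1, 100.2 and 105.8 FPKM in olanzapine rats 4, 10 and 12 and at 138, 134 and 108 FPKM in vehicle rats 3, 9 and 11. The olanzapine rats were within a few FPKM of each other and vehicle rat 11 was barely above them. The mean was 104 ± 3.35 FPKM in the olanzapine rats and 127 ± 16.1 FPKM in the vehicle rats (SD, n = 3 each). Its log2 fold change was -0.27 (standard error 0.17, 95% interval -0.66 to 0.11, unadjusted p = 0.136 and adjusted p = 0.490 from limma), which did not pass the test. Of the 7 isoform genes, 1 had groups that did not overlap, against 19.7% of all genes tested, of which 14.6% were lower and 5.12% higher. The groups of Cox8a overlapped after division by size factors, at 101.6 to 120.3 in the olanzapine rats and 97.0 to 131 in the vehicle rats, where the log2 fold change was -0.10.

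Cox4i2, on chromosome 3 from 154637663 to 154648535, was the lowest gene with a value above 0 in all rats. It was at 5.82, 6.20 and 8.02 FPKM in olanzapine rats 4, 10 and 12 and at 6.87, 5.79 and 10.3 FPKM in vehicle rats 3, 9 and 11. Vehicle rat 11, the library of lowest estimated depth, held the highest value. The log2 fold change was -0.15 (standard error 0.23, 95% interval -0.67 to 0.37, adjusted p = 0.786 from limma), 0.06 without vehicle rat 11 and 0.01 with median-ratio size factors. In mice this gene is also known from pericytes, the mural cells of small vessels. The 9 measured markers of pericytes and smooth muscle summed to 110 to 137 FPKM in the olanzapine rats and 157 to 181 FPKM in the vehicle rats, and 1 gene, Rgs5, made up most of each sum, with a mean of 82.6 FPKM in the olanzapine rats and 117 FPKM in the vehicle rats. Of the 9, 2 were lower without overlap, where 14.6% of all genes were, and at an unadjusted p under 0.05 in limma Rgs5 was lower and Cnn1, a smooth muscle gene, higher (log2 fold change 0.82), while none passed the adjusted test. The 8 endothelial markers summed to 96.1 to 138 FPKM in the olanzapine rats and 101 to 122 FPKM in the vehicle rats. The part of vascular cells in the values of Cox4i2 was not tested. In a mixed tissue fewer cells of a type and less RNA per cell cannot be told apart.

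Cox7a2, the liver form of subunit 7a on chromosome 8 from 86753412 to 86757509, was listed at 20.5 FPKM in olanzapine rat 4 and at 0 in olanzapine rats 10 and 12, against 7.78 FPKM in vehicle rat 11 and 0 in vehicle rats 3 and 9. Surf1, an assembly factor of complex IV that cells with mitochondria use, was also listed at 0 in all 6 rats, in the higher of its 2 rows. What a value of 0 stands for in these data was not tested. Cox7a2 therefore has no mean and no share here, and its fitted change rests on the listed zeros and is not read as a change. A row named Cox7a2l2, on chromosome 14 from 52813655 to 52814107, was at 624, 503 and 935 FPKM in olanzapine rats 4, 10 and 12 and at 670, 444 and 484 FPKM in vehicle rats 3, 9 and 11. This gene is no member, was named after its values were seen, and had a log2 fold change of 0.34 (adjusted p = 0.577 from limma). RefSeq lists pseudogenes of Cox4i1, Cox6a1 and Cox7a2, and reads that matched more than 1 place are not in the values, so the levels of these genes are uncertain to that extent.

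None of the 7 genes passed an adjusted p of 0.05 in limma in either direction, where 0.506% of all genes tested did (0.457% lower), and none had an unadjusted p under 0.05, where 13.2% did. Without Cox7a2, 3 of the 6 log2 fold changes were above 0 and 3 below, with a median of 0.02 against -0.11 over all genes tested. Cox7a2 was left out of this count after its values were seen. FPKM is a level per length, so the isoforms can be ordered within a rat, as far as uniquely mapped reads represent each gene. For Cox4i1, Cox6a1 and Cox7a2, which have listed pseudogenes, the order is uncertain to that extent. Cox6a2, Cox8b and Cox4i1 filled the first 3 places in all 6 rats, with Cox6a2 above Cox8b in 5 of 6 rats and Cox8b first in olanzapine rat 12. Cox8a and Cox6a1 changed places, with Cox8a higher in 3 of 6 rats, and like Cox6a2 and Cox8b these neighbours overlapped within the spread between rats.

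The share of the muscle form within a pair does not depend on how a library is scaled. Cox6a2 made up 97.4%, 97.9% and 97.6% of the FPKM of Cox6a1 and Cox6a2 in olanzapine rats 4, 10 and 12, and 98.0%, 97.6% and 96.8% in vehicle rats 3, 9 and 11. The mean share was 97.6% ± 0.260 in the olanzapine rats and 97.5% ± 0.582 in the vehicle rats (SD, n = 3 each), a difference of 0.15 percentage points (exact permutation test, both sides, p = 0.9). In FPKM, Cox6a2 was 37.2 to 46.6 times Cox6a1 in the olanzapine rats and 30.5 to 47.8 times in the vehicle rats. Reads that matched more than 1 place are left out, and Cox6a1 and Cox4i1 have listed pseudogenes. The shares and ratios of their pairs are uncertain to that extent. The difference in the Cox6a2 share was -0.17 percentage points without vehicle rat 11.

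Cox8b made up 97.3%, 96.9% and 98.3% of the FPKM of Cox8a and Cox8b in olanzapine rats 4, 10 and 12, and 97.4%, 96.4% and 96.9% in vehicle rats 3, 9 and 11. The highest share was that of olanzapine rat 12 and the ranges overlapped. The mean was 97.5% ± 0.724 in the olanzapine rats and 96.9% ± 0.515 in the vehicle rats (SD, n = 3 each), a difference of 0.64 percentage points (exact permutation test, both sides, p = 0.4). Without a single rat the difference lay between 0.24 and 0.93 percentage points, the lowest being without olanzapine rat 12. Cox8b exceeded Cox8a 31.7 to 58.8 times in the olanzapine rats and 26.5 to 37.4 times in the vehicle rats.

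Cox4i2 made up 0.388%, 0.407% and 0.368% of the FPKM of both subunit 4 forms in olanzapine rats 4, 10 and 12, and 0.355%, 0.365% and 0.707% in vehicle rats 3, 9 and 11. The 5 rats other than vehicle rat 11 lay within a narrow range. The difference of the means was -0.088 percentage points (exact permutation test, both sides, p = 1) and 0.028 without vehicle rat 11. These 3 pairs were compared with 3 rats against 3, which allow no p below 0.1, and adjusted over the 3 pairs each p was 1.

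**Figure D2:**
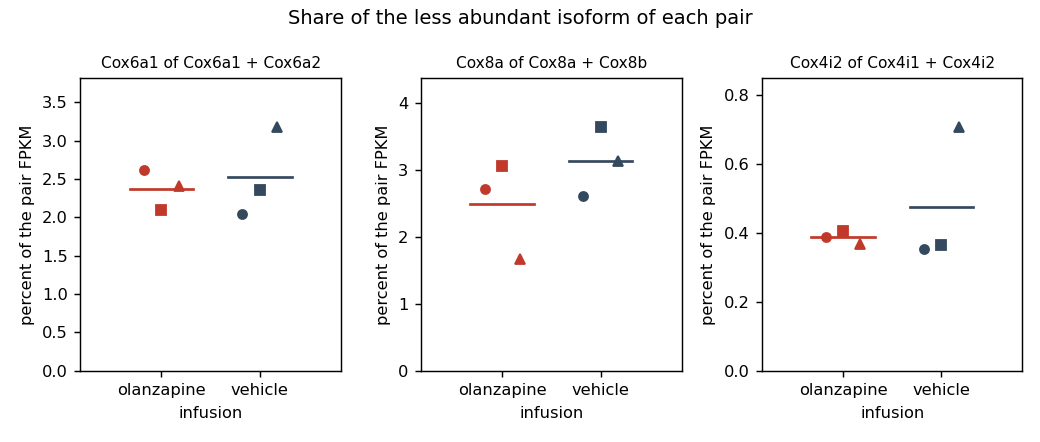
Percent of the FPKM of a pair that falls to its less abundant isoform, for each rat, olanzapine left of vehicle, with a line at the group mean and symbols per rat as in the plot of levels. Cox6a1 takes 2.05% to 3.17%, Cox8a 1.67% to 3.64% and Cox4i2 0.355% to 0.707% of its pair, and the groups overlap in all 3 panels.

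The same libraries differed between the groups in fiber type transcripts, and the part of these in the isoform values was not tested. Myh7, the slow myosin heavy chain, took 4.08%, 0.695% and 1.87% of the FPKM of the adult chains Myh7, Myh2, Myh1 and Myh4 in olanzapine rats 4, 10 and 12, against 25.9%, 12.5% and 15.1% in vehicle rats 3, 9 and 11 (exact permutation test, both sides, p = 0.1, the smallest that these rats allow). The 9 slow fiber markers summed to 2759 to 7097 FPKM in the olanzapine rats and 18489 to 33489 FPKM in the vehicle rats. Of the 9, 8 passed an adjusted p of 0.05 in limma, all lower, where 0.457% of all genes tested were. The 9 fast markers summed to 91526 to 124255 FPKM in the olanzapine rats and 53244 to 69477 FPKM in the vehicle rats. None of them passed, while 5 were higher at an unadjusted p under 0.05, where 3.79% of all genes tested were. The fast list holds Myh4 (type IIb) and leaves out Myh1 (type IIx) and Myh2 (type IIa), which went the other way. In limma the log2 fold change was -0.65 for Myh1 (adjusted p = 0.250) and -2.07 for Myh2 (adjusted p = 0.066). It was 1.19 for Myh4 (adjusted p = 0.424 from limma), so the fast markers do not stand for all fast chains.

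Cox8b is also a gene of brown fat and of heart. Of the brown fat markers, Ucp1, the defining one, was listed at 0 in all 6 rats, and the 4 measured markers summed to 2.14 to 6.40 FPKM in the olanzapine rats and 8.40 to 20.8 FPKM in the vehicle rats, with Cidea making up most of each sum. The 7 heart markers summed to 1.44 to 9.88 FPKM in the olanzapine rats and 12.9 to 16.9 FPKM in the vehicle rats, with Nppa listed at 0 in all rats. Myh6, which the study lists with slow or intermediate fiber genes, made up most of each vehicle sum. Its mean was 2.72 FPKM in the olanzapine rats and 11.2 FPKM in the vehicle rats. Cox8b was at 3171 FPKM in the rat where it was lowest. The part of brown fat or heart cells in its values was not tested.

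The pair totals were set against the nuclear subunits that have a single form in muscle. These are Cox5a, Cox5b, Cox6b1, Cox6c, Cox7b and Cox7c, and their mean was 1004, 870 and 1370 FPKM in olanzapine rats 4, 10 and 12 and 1108, 812 and 854 FPKM in vehicle rats 3, 9 and 11. As with Cox6a2, Cox8b and Cox4i1, though not with the other isoforms, olanzapine rat 12 and vehicle rat 3 were high. The sum of Cox6a1 and Cox6a2 was 4.00, 5.52 and 4.14 times this mean in olanzapine rats 4, 10 and 12 and 5.04, 5.57 and 4.47 times in vehicle rats 3, 9 and 11 (exact permutation test, both sides, p = 0.5). The sum of Cox8a and Cox8b was 3.89, 3.76 and 4.62 times the mean in the olanzapine rats and 4.78, 4.53 and 4.04 times in the vehicle rats (exact permutation test, both sides, p = 0.3). The sum of Cox4i1 and Cox4i2 was 1.49, 1.75 and 1.59 times the mean in the olanzapine rats and 1.75, 1.95 and 1.71 times in the vehicle rats (exact permutation test, both sides, p = 0.3). All 3 ratios had a lower mean in the olanzapine rats with overlapping groups, whereas the same sums as deposited FPKM had a higher mean there. Of the single genes in this ratio, Cox8a was 0.106, 0.115 and 0.0772 in the olanzapine rats and 0.125, 0.165 and 0.127 in the vehicle rats, without overlap (exact permutation test, both sides, p = 0.1, the smallest possible and 1 of 7 such ratios). The share of all genes without overlap in this ratio was not computed, and in FPKM it was 19.7% of the genes tested. The divisor itself had a mean 1.17 times as high in the olanzapine rats, so this is not read as a result about Cox8a.

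**Figure D3:**
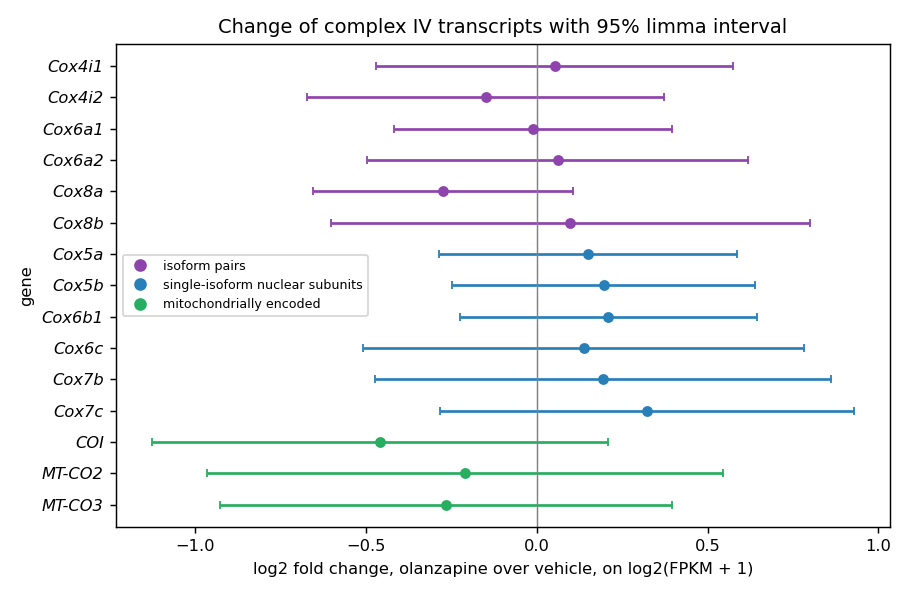
Log2 fold change of olanzapine over vehicle on log2(FPKM + 1) with its 95% interval from limma, for 6 isoform genes (purple, Cox7a2 left out), 6 single-isoform nuclear subunits (blue) and the 3 mitochondrially encoded subunits (green). Every interval shown includes 0, the 6 single-isoform subunits lie between 0.14 and 0.32, and the 3 mitochondrially encoded subunits lie between -0.46 and -0.21.

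Of the other genes of complex IV, 40 of those listed had a row, and none passed an adjusted p of 0.05 in limma. The 6 single-isoform subunits all had values above 0, with a median of 0.19, where 3671 of the 10285 genes tested were above 0. None of the 6 had an unadjusted p under 0.05. The largest were Cox7c at 0.32 (adjusted p = 0.591), Cox6b1 at 0.21 (adjusted p = 0.630) and Cox5b at 0.20 (adjusted p = 0.661). The mean of the 6 subunits was 1081 ± 259 FPKM in the olanzapine rats and 925 ± 160 FPKM in the vehicle rats (SD, n = 3 each), a difference within the spread (exact permutation test, both sides, p = 0.5).

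The 3 subunits of the catalytic core had values below 0, as had 6614 of the 10285 genes tested. The row named COI, subunit I, was at 28504, 17488 and 24266 FPKM in olanzapine rats 4, 10 and 12 and at 32031, 26249 and 37471 FPKM in vehicle rats 3, 9 and 11. Among these values olanzapine rat 10 was the lowest and vehicle rat 11 the highest. The log2 fold change of COI was -0.46 (standard error 0.29, adjusted p = 0.506 from limma), that of MT-CO2 -0.21 (adjusted p = 0.793) and that of MT-CO3 -0.26 (adjusted p = 0.689). With median-ratio size factors these changes were -0.28 for COI, -0.036 for MT-CO2 and -0.090 for MT-CO3. The mean of MT-CO2 and MT-CO3 was 28.5, 18.9 and 18.4 times the mean of the 6 nuclear subunits in olanzapine rats 4, 10 and 12 and 27.9, 29.0 and 31.4 times in vehicle rats 3, 9 and 11. Olanzapine rats 10 and 12 lay below all vehicle rats and olanzapine rat 4 among them (exact permutation test, both sides, p = 0.2). This ratio was computed after the values of the genes had been seen.

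**Figure D4:**
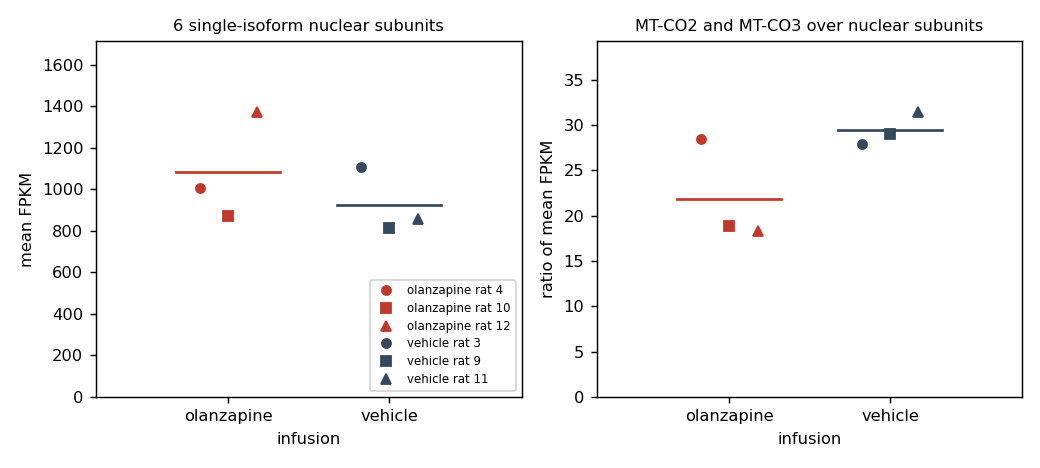
Left, mean FPKM of 6 single-isoform nuclear subunits per rat. Right, mean FPKM of MT-CO2 and MT-CO3 divided by that nuclear mean. Olanzapine stands left of vehicle and lines mark group means, and the ratio is 18.4 to 28.5 in the olanzapine rats and 27.9 to 31.4 in the vehicle rats.

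Of 26 assembly and translation factors of complex IV, 24 had a row and 23 were tested. Their median log2 fold change was -0.13, near the -0.11 of all genes tested. At an unadjusted p under 0.05 limma gave 4 lower and 1 higher, where 9.45% and 3.79% of all genes were lower and higher. Taco1, a translational activator of subunit I, had the largest value, at 2.23, 3.31 and 3.24 FPKM in olanzapine rats 4, 10 and 12 and at 6.99, 4.94 and 5.47 FPKM in vehicle rats 3, 9 and 11. Its groups did not overlap, and its log2 fold change was -0.79 (standard error 0.20, adjusted p = 0.177 from limma), which missed the test over all genes. Lrpprc, which stabilizes mitochondrial mRNAs, was at 31.5, 33.7 and 21.1 FPKM in the olanzapine rats and 43.5, 36.0 and 48.9 FPKM in the vehicle rats (log2 fold change -0.57, adjusted p = 0.330 from limma). Cox15, an enzyme of heme A synthesis, had a log2 fold change of -0.51 (adjusted p = 0.356). On the log2 scale the other forms Cox7a2l, a supercomplex factor, Ndufa4, now counted as a subunit of complex IV, and Cox6b2, a testis form, had changes of 0.31 (adjusted p = 0.480), 0.24 (adjusted p = 0.657) and -0.22 (adjusted p = 0.839). Cox8c, a testis form of subunit 8, was listed at 0 in all 6 rats. The Cycs row used for cytochrome c, the higher of the 2 rows of that symbol, spans 318 bases on chromosome 18 and had a log2 fold change of 0.17 (adjusted p = 0.686 from limma).

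The genes whose log2(FPKM + 1) varied most like a muscle form over the 6 rats were found by Pearson r, as a description without a test. For Cox6a2 they were Mrps15, a mitochondrial ribosomal protein, at an r of 0.988, Gtf2h5 at 0.977 and MGC94335 at 0.971. For Cox8b they were Ndufa1, a subunit of complex I, at 0.997, Pp3111 at 0.993 and Mrps25, another mitochondrial ribosomal protein, at 0.984. With 6 points, 13 named genes exceeded an r of 0.95 for Cox6a2 and 35 for Cox8b among the 10285 tested, and in each rat both genes share 1 library and its scaling. Ndufa1 was at 401, 364 and 556 FPKM in olanzapine rats 4, 10 and 12 and at 502, 378 and 370 FPKM in vehicle rats 3, 9 and 11, high in olanzapine rat 12 and vehicle rat 3 as Cox8b was.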

How the data were processed

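RNA from the gastrocnemius of 6 rats was sequenced by Illumina for 50 cycles, single end. With TopHat 2.0.9 the authors mapped the reads to Rn5, and they deposited FPKM per Ensembl gene, computed from uniquely mapped reads with Cufflinks 2.2.1. FPKM carry no read counts, so the depth was only estimated as a ratio between rats, from the commonest ratio of low values, and no counting interval can be given. Columns of group means, standard errors, fold changes and significance marks by the authors were not used. Loci in the table count from 0, and starts were raised by 1.

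Genes whose mean reached 1 FPKM, 10285 in all, were compared on log2(FPKM + 1) with limma 3.58.1 in R 4.3.3 (variance trend, Benjamini-Hochberg over all genes, adjusted p under 0.05), which was tested on simulated data first. The study used a likelihood ratio test on summed FPKM, which has no term for the spread between rats. From that test the study lists Cox7a2, Cox8a, Cox8b and the mitochondrially encoded subunits of complex IV among the genes altered by olanzapine. None of these passed in limma here. Isoform shares and ratios were compared by an exact permutation test over the rats, on both sides. The rule for named genes took all members, the 3 largest changes of each other complex IV list and all mitochondrially encoded subunits, and the 3 genes most like each muscle form. Where a symbol had several rows, the one with the highest mean was used. COI and Selrc1 stood in for MT-CO1 and Coa7. The share of the Cox7a pair could not be computed. Alternatives changed the pseudocount, the filter, the scaling, the trend, short loci and the rats included. The members and lists were chosen with earlier results of these data known.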

Additional observations from a re-analysis of the deposited data

How the results depend on the processing

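In all fits run, with other pseudocounts, filters, scalings, trend and locus limits and without each rat, 0 of the isoform genes and 0 of the other complex IV genes passed an adjusted p of 0.05. Directions near 0 turned. With median-ratio size factors the log2 fold change was 0.16 for Cox6a1 and 0.0068 for Cox4i2. The pair totals, lower with olanzapine as ratios (-0.19 for Cox4, -0.48 for Cox6a and -0.36 for Cox8), were higher as deposited FPKM, by 74.3, 184 and 360, and over size factors, by 299, 808 and 949. Without 1 rat the ratios lay between -0.26 and -0.11 for Cox4, -0.96 and -0.20 for Cox6a and -0.62 and -0.20 for Cox8. The share difference in percentage points lay between -0.17 and 0.39 for Cox6a2, 0.24 and 0.93 for Cox8b and -0.15 and 0.028 for Cox4i2. The log2 fold change without 1 rat ran from -0.12 to 0.17 for Cox4i1, -0.31 to 0.060 for Cox4i2, -0.15 to 0.070 for Cox6a1, -0.075 to 0.21 for Cox6a2, -0.18 to 0.30 for Cox8b, -0.62 to 0.27 for Cox6b2 and -0.39 to 0.12 for MT-CO2. The fitted value of Cox7a2, which rests on rats listed at 0 and is not read as a change, ran from -1.04 to 1.48. That of Cox8a stayed between -0.38 and -0.10 in every fit run. For the pair totals, the divisor of the ratios, the mean of the 6 nuclear subunits, rose more than the sums did. In deposited FPKM its group mean was 1.17 times as high in the olanzapine rats. That of the sums was 1.04 times as high for Cox4, 1.04 for Cox6a and 1.09 for Cox8. The cause of the other turns was not tested. No paired analysis was run, because the sample labels record no pairing of the rats. Depth is unknown in reads, and 3 rats a group limit each comparison.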
